A study of Mus musculus with 12 samples.

Results

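The genes described here are the homeobox, forkhead, Sox and related developmental transcription factors whose transcripts carried N6-methyladenosine (m6A) peaks in J1 mouse embryonic stem (ES) cells. They were chosen by symbol alone, as any gene listed with a peak whose name begins with Hoxa to Hoxd, Fox, Sox, Lhx, Pax, Gata, Tbx, Irx, Dlx, Meis, Pbx, Pknox, Pou or Nkx followed by a number, or as that of Six4 does, and 5 genes named in the rule were left out. This gave 75 of the 6074 genes listed with a peak, of which 74 are protein coding and the other is the long noncoding RNA Sox2ot. Overlapping peaks of the 6 immunoprecipitation (IP) libraries on the same strand were joined into loci, and 111 of 10747 loci belonged to these genes.

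The series compared J1 cells carrying a short hairpin RNA against Mettl14, a short hairpin RNA against Mettl3, or a scramble hairpin as control. All 3 groups were infected with lentivirus, selected with puromycin and grown with leukaemia inhibitory factor on irradiated mouse embryonic fibroblasts, per the labels' protocols. Each group had 2 IP libraries, in 2 sets of 1 Mettl14 knockdown, 1 Mettl3 knockdown and 1 scramble library, and within a set both knockdowns were compared with the same scramble library. The labels do not say that the 2 libraries of a group came from separate infections or cultures, so the spread between them may be technical. Neither targeted gene had a listed peak, and without expression values in the tables the knockdowns could not be checked here.

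Methylation of adenosine in mRNA is laid down by a complex in which METTL3 is the catalytic subunit and METTL14 binds the RNA. The mark is known to shorten the life of many transcripts and to affect splicing and translation. Fox, Sox, Pou, homeobox, Gata and T-box proteins bind DNA and direct cell fates, and ES cells keep most of them low, with Sox2, Foxd3 and Tbx3 as exceptions that act in the undifferentiated state. The antibody pulls down fragments around a methylated adenosine, so a peak is a stretch enriched in the IP over its own input, and its values give no single base.

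The methylated adenosine usually lies in a GGACT core or a relative of it. The stretches below are 30-nt windows around a GGACT of a locus, read 5′ to 3′ from GENCODE M21 transcripts on mm10, with GGACT in capitals. The GGACT taken was the nearest to the centre of the part shared by the peaks of the locus. Peak ends were rounded for this choice, so another GGACT can lie nearer. The place named with each stretch is that of the centre of its whole locus. The window itself can lie in another part of the transcript, and those of Sox2 and Tbx3 lie downstream of the centre. The first 2 lie in loci that were lower in every knockdown table, the next 2 in loci found in both scramble libraries and in no knockdown library, the fifth in a locus found in 3 knockdown libraries and no scramble library, and the last 3 in transcripts of factors that act in ES cells.
Sox11, coding, chr12:27341870-27341899, minus strand: ggcgcagccgggGGACTgcgccgcgggcaa
Pknox2, 3′ UTR, chr9:36892538-36892567, minus strand: agcgtgagatctGGACTcaccgaataccag
Nkx6-2, near the stop codon, chr7:139581384-139581413, minus strand: acccgagaaccgGGACTcgcggcatgcccc
Nkx6-3, 3′ UTR, chr8:23158179-23158208, plus strand: agtcgtaggctgGGACTgcaaagcaaaaga
Nkx2-3, near the stop codon, chr19:43615005-43615034, plus strand: cgtgcacgcaggGGACTttgcagggcatca
Sox2, coding, chr3:34651369-34651398, plus strand: catgtgagggctGGACTgcgaactggagaa
Foxd3, near the stop codon, chr4:99658146-99658175, plus strand: ctacccaatcctGGACTctgctacccgccc
Tbx3, near the stop codon, chr5:119683323-119683352, plus strand: ctttgaaacgcgGGACTgagggggcgggag

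GGACT was searched on the transcript strand only. It occurred in 57.0% of the 107 loci of these factors that lie on transcripts, against 61.2% of the 7689 such loci in all, and at 1.72 against 1.62 per kb. Over the whole transcripts it stood at 1.15 and 1.14 per kb, and 2.92% of all 30-nt windows of the factors' transcripts held it. The loci of these factors were thus richer in GGACT than their own transcripts, by about as much as loci in general. Named loci with no GGACT in their exonic part included those of Foxa2, Dlx3 and Pou3f2, the 3′ UTR locus of Foxo3 and both loci of Irx2. The coding locus of Sox3 also had none, nor had the coding loci of Foxd3 and Six4 that were found in all libraries.

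Of 189 annotated protein-coding genes that the rule admits, 74 (39.2%) had a peak in at least 1 library, against 5792 of all 21951 coding genes matched by gene ID (26.4%). A peak needs both a transcript and methylation on it, so a gene without a peak is not shown to be unmethylated, and in these bulk samples fewer cells of a type and less RNA per cell cannot be told apart. The families differed widely. Peaks were listed for 15 of 18 Sox genes, 4 of 6 Irx genes, 24 of 42 Fox genes, 8 of 14 Nkx genes, 3 of 6 genes of the Six4 family and 6 of 14 Pou genes. At the other end stood 4 of 39 Hox genes, 1 of 9 Pax genes (Pax6), 1 of 8 Lhx genes (Lhx6) and 1 of 6 Dlx genes (Dlx3). Between these lay 2 of 6 Gata, 3 of 13 Tbx and 2 of 8 TALE genes, the last being Meis2 and Pknox2, cofactors of Hox proteins. No peak was listed for Pou5f1, which maintains the undifferentiated state, or for Gata6, an endoderm factor.

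**Figure D1:**
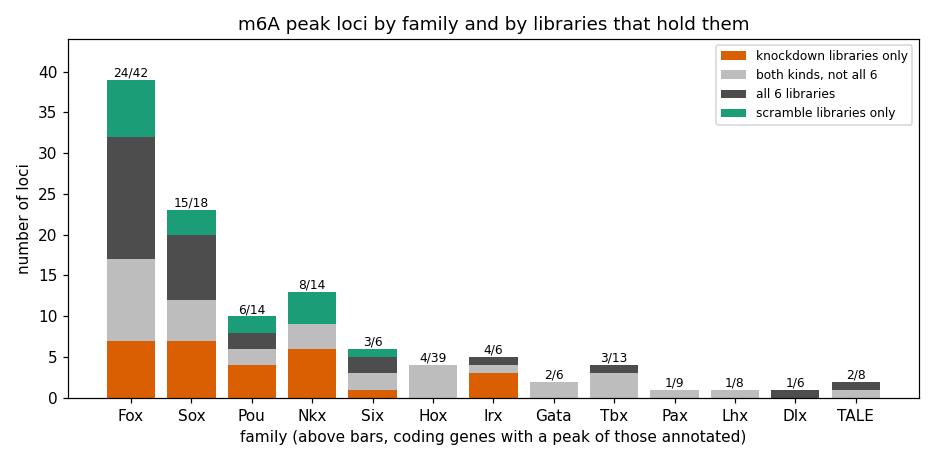
Number of m6A peak loci (vertical axis) in each family of transcription factors (horizontal axis), split by which of the 6 IP libraries held a peak, with coding genes with a peak of those annotated printed above each bar. Fox and Sox genes hold 39 and 23 of the 111 loci, and 15 and 8 of the 31 loci found in all 6 libraries.

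Most of these genes had a single locus. There was 1 locus in 49 genes, 2 in 18 and 3 or more in 8, with a mean of 1.49 loci per gene against 1.44 over all 6074 genes. Foxd3, Foxo3 and Sox1 had 4 loci each. Foxo1, Nkx2-2, Pou4f1, Six4 and Sox30 had 3 each. At 10 loci another gene was listed too, among them the 4 Sox1 loci (Gm5607) and the last Foxd3 locus (BX005053.1), and the single Sox2 locus was listed for Sox2ot as well. Which transcript such a peak belongs to cannot be told from the tables.

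Within exons the peaks lay about where m6A peaks in general lay, and fewer of them lay in introns. Of the 111 locus centres, 17.1% fell in a 200-nt window centred on the end of the stop codon, 49.5% elsewhere in coding sequence, 19.8% elsewhere in the 3′ UTR and 7.21% in the 5′ UTR, against 13.3%, 47.5%, 19.5% and 5.26% of 8449 loci with an annotated gene. Introns held 2 of the factors' 111 loci, against 7.99% of all loci. The transcripts themselves differ in build: 14 of 74 (18.9%) have a single exon, against 257 of the 5792 coding genes with peaks (4.44%), and 24 of the 189 annotated family members (12.7%). Among the Sox genes with a peak, 7 of 15 have a single exon, as have Foxd3 and Pou3f2.

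**Figure D2:**
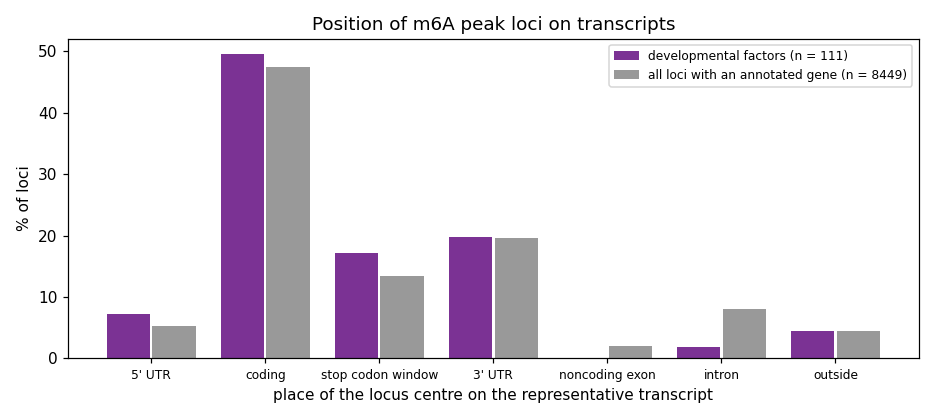
Share of m6A peak loci (vertical axis, %) by the place of the locus centre on the representative transcript (horizontal axis), for the developmental factors and for all loci with an annotated gene. Coding sequence holds 49.5% of the factors' loci and 47.5% of all loci.

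The values behind each locus are peak enrichments. Enrichment is the peak caller's ratio of IP to input, which the authors multiplied by 1 constant per knockdown library to set it beside scramble. Where a library has several peaks in a locus, the widest is given. A ratio over little input can be high with few reads: the developmental factors' peaks held 6 to 1021 tags (mapped reads) in the knockdown libraries, and tags were known for 60 of their 134 scramble peaks, at 11 to 236. The depth of the libraries was unknown, since the tables give no read totals. Median enrichment at these factors was 17.4 and 11.4 in the Mettl14 knockdown libraries, 24.1 and 9.79 in the Mettl3 knockdown libraries, and 19.3 and 19.5 in the scramble libraries, given for set 1 and then set 2 here and throughout.

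**Figure D3:**
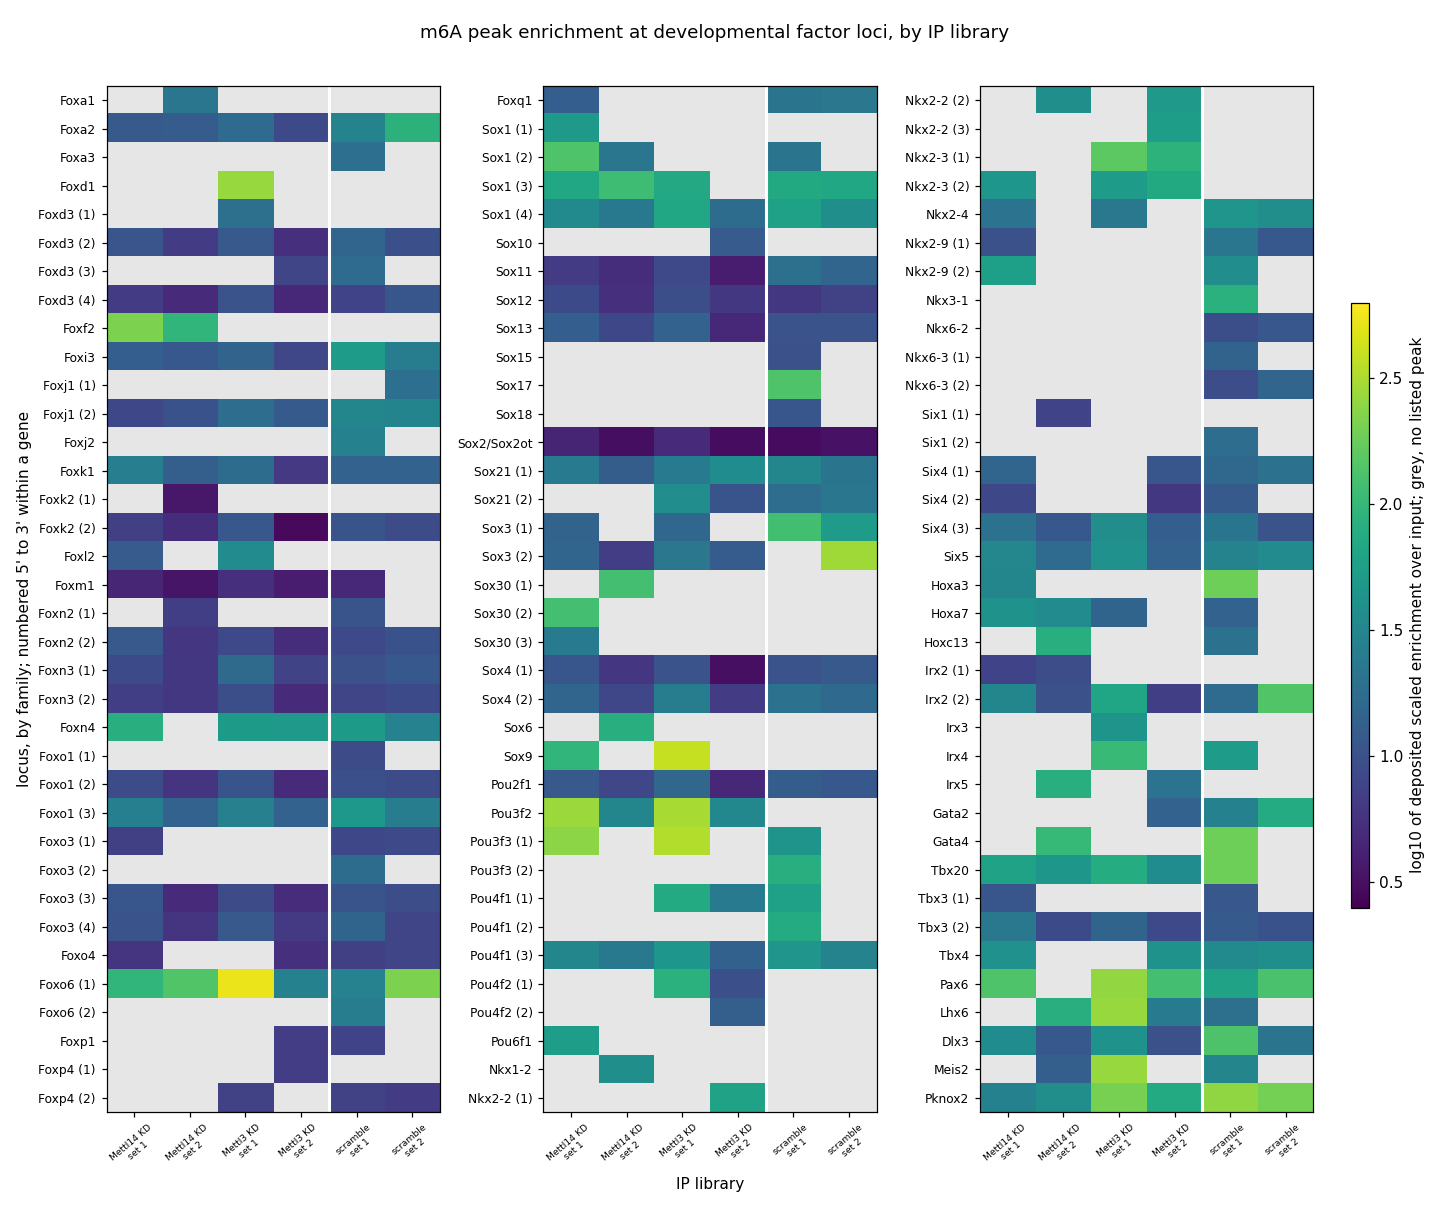
Scaled enrichment over input (colour, log10) at 108 of the 111 loci (rows, by family, numbered 5′ to 3′ within a gene) in the 4 knockdown and 2 scramble IP libraries (columns), with grey where no peak was listed. Loci filled across the row number 31, and the highest cell is the 540 of Foxo6 in the Mettl3 knockdown library of set 1.

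The number of peaks on these factors overlapped between knockdown and scramble libraries. There were 66 and 54 peaks in the Mettl14 knockdown libraries and 58 and 60 in the Mettl3 knockdown libraries, against 82 and 52 in the scramble libraries. They covered 39.9 and 38.1 kb with Mettl14 knockdown and 39.2 and 38.6 kb with Mettl3 knockdown, against 57.5 and 43.6 kb with scramble. The covered length was thus shorter in each of the 4 knockdown libraries than in either scramble library, while the number of peaks was not. Over all peaks it was shorter too, at 3386 and 3063 kb with Mettl14 knockdown and 3225 and 3052 kb with Mettl3 knockdown, against 5212 and 4254 kb with scramble. For covered length the exact two-sided permutation test over libraries gave p = 0.333 for each knockdown, which is the smallest p that 2 against 2 can give, and for the number of peaks p = 1. Over all genes the libraries held 5717 and 4367 peaks with Mettl14 knockdown, 5087 and 4577 with Mettl3 knockdown, and 7886 and 5438 with scramble. Over all genes the number of peaks in each set was thus lower with either knockdown than with scramble, while on these factors it was lower in set 1 and slightly higher in set 2.

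A scramble peak was lost if no knockdown peak of the same set overlapped it by at least 1 nt, and a knockdown peak was new if no scramble peak did. With Mettl14 knockdown, 29 of 82 scramble peaks on these factors were lost in set 1 (35.4%, 95% Wilson interval 25.9 to 46.2%), against 43.3% of all scramble peaks. In set 2, 19 of 52 were lost (36.5%, 24.8 to 50.1%), against 45.9%. Both intervals held the share over all peaks.

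With Mettl3 knockdown, 34 of 82 scramble peaks on these factors were lost in set 1 (41.5%, 31.4 to 52.3%), against 45.4% of all scramble peaks. In set 2, 12 of 52 were lost (23.1%, 13.7 to 36.1%), against 41.9%. That share was the lowest of the 4 and the only interval that lay below the share over all peaks, and it did not recur in set 1. Where an overlap of at least 50% of the peak was asked for, the set 2 share was 34.6% (23.2 to 48.2%), against 48.6% of all scramble peaks. The intervals cover counting error only, and peaks on a shared transcript are not independent.

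New peaks were at least as frequent on these factors as elsewhere, within wide intervals. They numbered 14 of 66 (21.2%, 13.1 to 32.5%) in set 1 and 21 of 54 (38.9%, 27.0 to 52.2%) in set 2 with Mettl14 knockdown, against 18.9% and 31% of all knockdown peaks. With Mettl3 knockdown they numbered 11 of 58 (19.0%, 10.9 to 30.9%) and 19 of 60 (31.7%, 21.3 to 44.2%), against 12.8% and 28.1%. All 4 intervals held the share over all peaks. New peaks rested on few tags: their median tag count was 18.5 and 17 under Mettl14 knockdown and 25 and 22 under Mettl3 knockdown, against 76.5, 121, 90 and 93 in the knockdown copies of shared peaks. Lost peaks had medians of 41 and 54 tags against Mettl14 knockdown and 53 and 60 against Mettl3 knockdown.

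**Figure D4:**
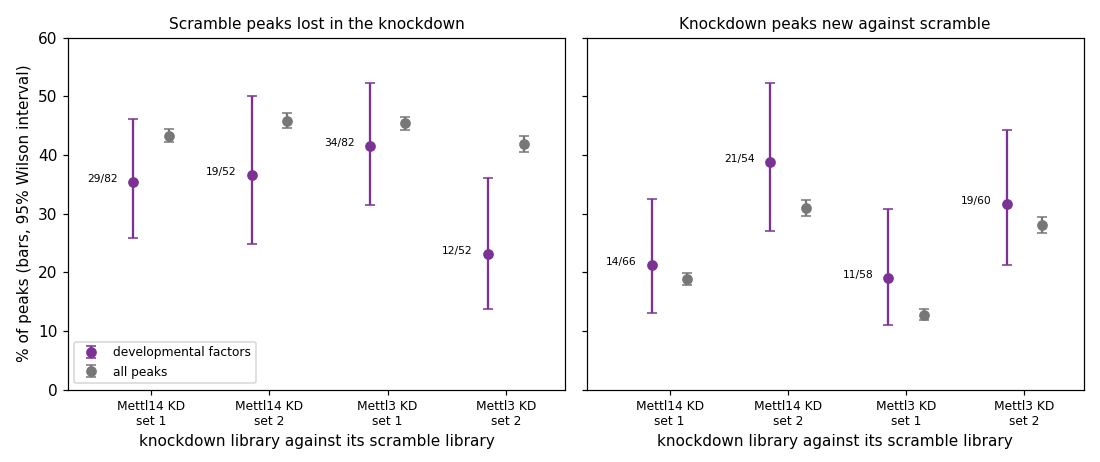
Share of scramble peaks lost (left) and of knockdown peaks new (right), as % of peaks with 95% Wilson intervals (bars), for each knockdown library against its scramble library (horizontal axis), with counts printed beside the developmental factors. The factors' shares of lost peaks lie at or under 41.5% and those of all peaks at 41.9% to 45.9%.

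By family the losses rest on few peaks, and differences between families were not tested. Sox genes lost 4 of 15 and 3 of 13 scramble peaks with Mettl14 knockdown, and 4 of 15 and 3 of 13 with Mettl3 knockdown. Fox genes lost 10 of 32 and 7 of 22 with Mettl14 knockdown, and 12 of 32 and 5 of 22 with Mettl3 knockdown. Nkx genes lost 4 of 7 and 4 of 4 scramble peaks with Mettl14 knockdown and 6 of 7 and 4 of 4 with Mettl3 knockdown. Gata genes lost 2 of 2 and 1 of 1 with Mettl14 knockdown and 2 of 2 and 0 of 1 with Mettl3 knockdown. No locus of the Nkx, Hox, Gata, Pax or Lhx genes was found in all 6 libraries, against 15 of 39 Fox and 8 of 23 Sox loci.

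Shared peaks carry the authors' comparison of the 2 enrichments, given here as log2 of knockdown over scramble. The median over these factors was -0.16 (54 comparisons) and -0.77 (33) with Mettl14 knockdown, against -0.06 and -0.59 over all shared peaks. With Mettl3 knockdown it was 0.14 (49) and -1.05 (41), against 0.22 and -0.91. The factors' medians lay below those of all peaks by 0.08 to 0.18 in the 4 tables, less than the sets differed from each other under either knockdown. Values under 0 made up 34 of 54 and 31 of 33 with Mettl14 knockdown, against 54.6% and 84.8% of all shared peaks, and 19 of 49 and 37 of 41 with Mettl3 knockdown, against 35.2% and 93%. Without the scaling constants the medians of the factors were -0.01 and -0.41 with Mettl14 knockdown, against 0.08 and -0.23 over all shared peaks, and 0.14 and -0.33 with Mettl3 knockdown, against 0.22 and -0.20. Values under 0 were then 27 of 54 and 26 of 33 with Mettl14 knockdown, against 45.1% and 65.7%, and 20 of 49 and 30 of 41 with Mettl3 knockdown, against 35.5% and 63.0%.

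A gene was counted as lower in a table where its peaks were all lost or below 0 in log2 change, and as higher where they were all new or above 0. In single tables, 36 of 66 and 35 of 57 factors were lower and 18 and 16 were higher under Mettl14 knockdown, against 57.8% and 70.6% lower and 27.4% and 19.7% higher over all genes. Under Mettl3 knockdown 30 of 66 and 33 of 51 were lower and 22 and 12 higher, against 49.6% and 75.6% lower and 34.7% and 16% higher. With Mettl14 knockdown, 19 of 52 factors listed in both sets were lower in both, against 41.8% of all such genes, and 4 were higher in both, against 7.55%. The 4 were Foxf2, Hoxa7, Pou3f2 and Sox30, and with only peaks of an FDR of at most 1% none was left. A further 15 (28.8%) were lower in 1 set and higher in the other, against 26.1% of all genes. Without the authors' scaling constants the split was 16 lower and 10 higher, so the count of higher genes depends on that constant. No share over all genes is at hand without the constants or at that FDR, so these counts have no background beside them.

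With Mettl3 knockdown, 15 of 48 factors were lower in both sets, against 33.5% of all genes, and 5 were higher in both, against 5.81%. The 5 were Foxm1, a cell cycle factor, Lhx6, Nkx2-3, Pou3f2 and Pou4f2. With only peaks of an FDR of at most 1%, 3 were higher in both. Another 14 (29.2%) had opposite calls in the 2 sets, against 35.5% of all genes. Without the scaling constants the split was 14 lower and 9 higher, again with no share over all genes at hand. Both knockdowns of a set are measured against the same scramble library, so a gene named for both is not a repeat of the finding.

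The firmest values come from the 31 loci, in 27 genes, that had a peak in all 6 libraries, 27.9% of the factors' loci against 20.3% of all loci. Of the 48 loci held by both scramble libraries these 31 are 64.6%, against 49.8% of all such loci. With Mettl14 knockdown, 19 of the 31 were lower in both sets, against 49.2% of all loci of this kind, and none was higher in both, against 8.02%. With Mettl3 knockdown, 11 were lower in both sets, against 34%, and 1 was higher in both (Six4), against 3.76%. Under Mettl3 knockdown, 18 of the 31 lay above 0 in set 1 and below 0 in set 2 (58.1%, against 60.7% of all loci of this kind). Without the scaling constants, 16 were lower and 5 higher with Mettl14 knockdown, and 11 lower and 5 higher with Mettl3 knockdown. The shares over all loci of this kind were then 33.2% lower and 22.7% higher with Mettl14 knockdown, and 27.0% lower and 28.7% higher with Mettl3 knockdown.

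**Figure D5:**
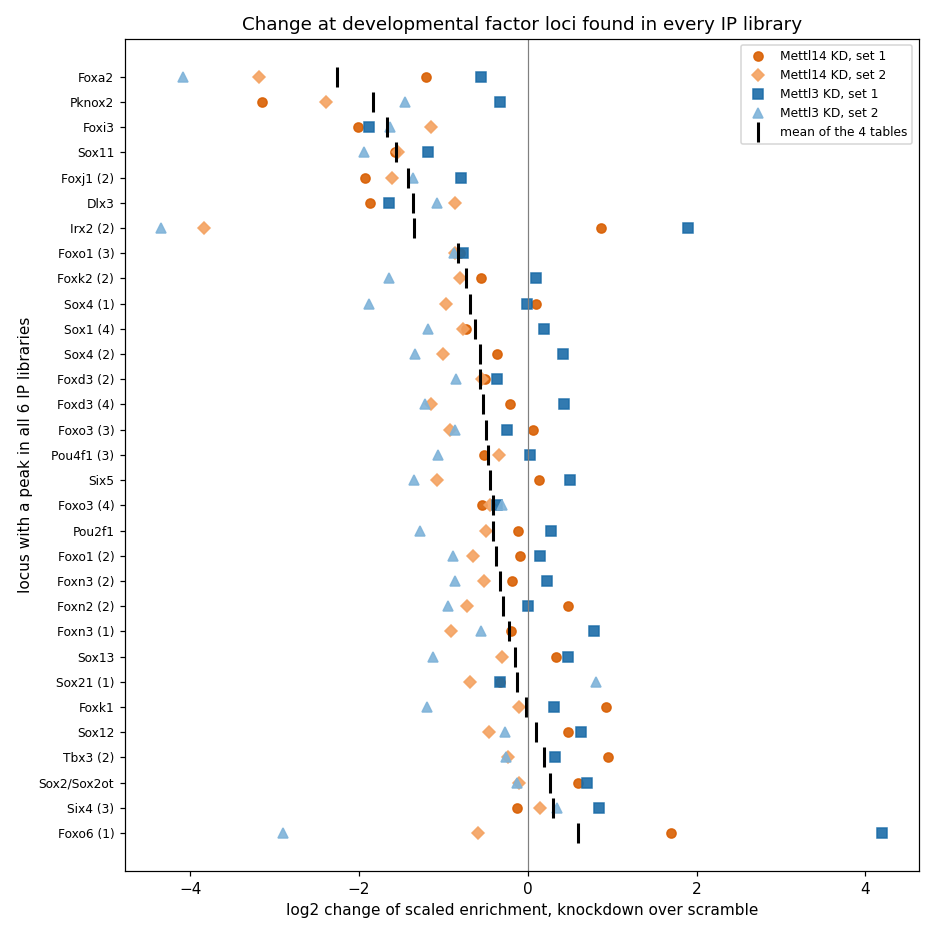
Log2 change of scaled enrichment, knockdown over scramble (horizontal axis), at the 31 loci with a peak in all 6 libraries (rows, ordered by the mean of the 4 tables), with a point per table and a black bar for the mean. Of the 9 loci left of 0 in every table, Foxa2, Pknox2, Foxi3, Sox11, Foxj1 and Dlx3 have the most negative means. Irx2 and Foxo6 change side between the sets.

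Sox11, a SoxC factor of neural progenitors, was lower by a similar amount in all 4 tables. Its locus (chr12:27341040-27342881, coding sequence of a single-exon gene, ENSMUSG00000063632) had enrichments of 6.52 and 5.22 under Mettl14 knockdown and 8.57 and 3.95 under Mettl3 knockdown, against 19.5 and 15.2 with scramble. The 4 knockdown values all lay under both scramble values, on peaks of 417 to 575 tags in the knockdown libraries and of near equal width in all 6. The log2 change was -1.58 and -1.54 under Mettl14 knockdown and -1.18 and -1.95 under Mettl3 knockdown.

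Foxi3, a forkhead factor of ectodermal placodes and appendages, behaved alike near its stop codon (chr6:70960457-70961509). Its enrichments were 13.2 and 11.5 under Mettl14 knockdown and 14.5 and 8.15 under Mettl3 knockdown, against 53.5 and 25.4 with scramble, on 97 to 175 tags in the knockdown libraries. The log2 change was -2.02, -1.14, -1.88 and -1.64 in the same order of tables. In Foxj1, which drives the formation of motile cilia, the 3′ UTR locus (chr11:116330928-116332247) stood at 8.25 and 10.0 under Mettl14 knockdown and 18.2 and 11.9 under Mettl3 knockdown, against 31.4 and 30.7 with scramble. Knockdown and scramble values did not overlap at either locus.

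Dlx3, a homeobox factor of placenta and epidermis, had enrichments of 36.6 and 11.5 under Mettl14 knockdown and 43.0 and 9.91 under Mettl3 knockdown, against 134 and 20.9 with scramble, at chr11:95123423-95124098 around the stop codon. The knockdown value was lower than scramble within each set, but the set 1 knockdown values exceeded the set 2 scramble value. Pknox2, a TALE homeodomain cofactor, had 28.7 and 38.1 under Mettl14 knockdown and 202 and 73.1 under Mettl3 knockdown, against 255 and 200 with scramble, at chr9:36892209-36892663 in the 3′ UTR. These are among the highest enrichments of the loci found in all libraries, but the knockdown peaks held only 9 to 21 tags. The log2 changes of Pknox2 were -3.15 and -2.39 under Mettl14 knockdown and -0.33 and -1.46 under Mettl3 knockdown.

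Foxa2, a pioneer factor of definitive endoderm, had the most negative mean change, -2.26 over the 4 tables, but it rests on peaks of unequal width. Each knockdown library had 2 peaks at the locus (chr2:148043190-148044955, coding sequence, ENSMUSG00000037025) and each scramble library had 1, in different places in the 2 sets. Where knockdown and scramble peaks overlapped, enrichment was 12.9 and 9.59 under Mettl14 knockdown and 20.1 and 5.14 under Mettl3 knockdown, against 29.6 and 87.1 with scramble. The second peak of each knockdown library was new in its table. In set 2 the scramble peak was 391 nt wide, and the overlapping knockdown peaks were 703 and 648 nt wide.

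Foxo1 and Foxo3, FoxO factors that respond to insulin signalling, showed smaller and even decreases in their 3′ UTRs. At Foxo1 (chr3:52347005-52347625) enrichment was 27.4 and 14.4 under Mettl14 knockdown and 28.0 and 14.2 under Mettl3 knockdown, against 47.8 and 26.1 with scramble, and the log2 change stood between -0.77 and -0.88 in all tables. At Foxo3 (chr10:42185537-42186409) it was 10.3 and 5.80 under Mettl14 knockdown and 11.7 and 6.42 under Mettl3 knockdown, against 15.0 and 7.94 with scramble. With the median of all shared peaks set to 0, the set 2 changes of Foxo3 were 0.14 with Mettl14 knockdown and 0.61 with Mettl3 knockdown, so its direction in set 2 depends on the scaling. In the same way the Mettl3 knockdown change of Foxo1 in set 2 came to 0.03. The coding loci of the same transcripts that had a peak in all libraries varied more between the sets. The Foxo1 one changed by -0.10 and -0.65 with Mettl14 knockdown and by 0.14 and -0.88 with Mettl3 knockdown. The Foxo3 one changed by 0.06 and -0.92 with Mettl14 knockdown and by -0.24 and -0.87 with Mettl3 knockdown.

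The changes of the leading 6 loci (Foxa2, Pknox2, Foxi3, Sox11, Foxj1 and Dlx3) stayed below 0 in each table without the scaling constants and with the median set to 0. These loci were picked for being below 0 in every table with the most negative means. Their keeping the sign is therefore largely set by that choice and is no independent check. Of their per-table values, the one nearest to 0 with the median set to 0 was the -0.16 of Dlx3 with Mettl3 knockdown in set 2.

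Among the factors that act in ES cells, Sox2 and Tbx3 were higher in set 1 and slightly lower in set 2. Sox2, a core pluripotency factor, had the lowest scramble enrichments of the 31 loci and the most tags (917 to 1021 in the knockdown libraries). Its enrichments were 4.47 and 3.07 under Mettl14 knockdown and 4.81 and 3.02 under Mettl3 knockdown, against 2.96 and 3.30 with scramble. Both set 1 knockdown values lay above both scramble values and both set 2 knockdown values lay between them. The log2 change was 0.59 and -0.10 under Mettl14 knockdown and 0.70 and -0.13 under Mettl3 knockdown, and positive in all tables once the median was set to 0.

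Tbx3, a T-box repressor that supports self-renewal, had 23.1 and 8.61 under Mettl14 knockdown and 15.0 and 8.5 under Mettl3 knockdown, against 12.0 and 10.2 with scramble, at its stop codon locus. Its set 1 changes were 0.95 and 0.33 and its set 2 changes -0.24 and -0.26 for Mettl14 and Mettl3 knockdown, and with the median set to 0 all 4 were positive. Foxd3, which acts both in pluripotent cells and in neural crest, carried 2 loci in all libraries. The coding locus (chr4:99656389-99657363) had 10.7 and 6.60 under Mettl14 knockdown and 11.9 and 5.30 under Mettl3 knockdown, against 15.2 and 9.60 with scramble, and its changes ran from -0.36 to -0.86. With the median set to 0 the set 2 changes of this locus were 0.05 and 0.06. The Foxd3 locus near the stop codon changed by -0.21 and -1.15 with Mettl14 knockdown and by 0.43 and -1.22 with Mettl3 knockdown.

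Among the 7 factors listed as pluripotency and early embryo factors, 5 had a peak, of which Foxd3 and Pou2f1 were lower in both sets with Mettl14 knockdown and none was lower in both with Mettl3 knockdown. The fifth, Sox15, had a peak in the set 1 scramble library alone, at 9.79 on 88 tags. Of all genes listed in both sets, 41.8% were lower in both with Mettl14 knockdown and 33.5% with Mettl3 knockdown.

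Some loci changed side between the sets. Irx2, an Iroquois homeobox factor, had enrichments of 31.4 and 9.92 under Mettl14 knockdown and 64.3 and 6.99 under Mettl3 knockdown, against 17.2 and 142 with scramble, at its larger coding locus. Its log2 changes were 0.87 and -3.84 under Mettl14 knockdown and 1.90 and -4.35 under Mettl3 knockdown. Foxo6, a FoxO factor of brain, had 94.6 and 142 under Mettl14 knockdown and 540 and 28.4 under Mettl3 knockdown, against 29.3 and 213 with scramble, on 11 to 37 tags in the knockdown libraries. At both loci each knockdown value lay above its scramble value in set 1 and below it in set 2.

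Of 48 loci found in both scramble libraries, 2 were absent from all 4 knockdown libraries, against 11.5% of all such loci, and both belong to the NKX6 homeobox factors. Nkx6-2, a neural tube and oligodendrocyte factor, had scramble enrichments of 9.41 and 11.2 on 105 and 121 tags near its stop codon (chr7:139580898-139581857). Nkx6-3, a factor of stomach epithelium, had scramble enrichments of 9.23 and 15.2 on 107 and 76 tags in its 3′ UTR (chr8:23157994-23158789). No peak was listed there in the knockdown libraries, for which the tables give no value. Nkx6-3 also had a coding locus in the set 1 scramble library alone, at 14.7 on 76 tags, so both loci of the gene were scramble-only. Loci held by scramble libraries alone made up 17 of the factors' 111, or 15.3%, against 26.4% of all loci. Of the 17, 14 were in the set 1 scramble library alone (12.6% of the factors' loci, against 16.1% of all loci).

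The reverse pattern was a peak in knockdown libraries and in neither scramble library, found at 28 of the 111 loci (25.2%) against 20.3% of all loci. At 18 of these (16.2% of the factors' loci, against 15.7% of all loci) a single library held the peak. At 10 (9.01%, against 4.58% of all loci) 2 or more knockdown libraries did. Only at 2 of the 111 loci, described next, did 3 or 4 knockdown libraries hold it, against 1.49% of all loci. Pou3f2, also called Brn2, a neural POU factor with a single exon, was the locus with a peak in all 4 knockdown libraries (chr4:22486938-22487487, coding, ENSMUSG00000095139). Its enrichments were 275 and 32.0 with Mettl14 knockdown, on 39 and 35 tags, and 304 and 33.2 with Mettl3 knockdown, on 25 and 22 tags, and no scramble peak was listed. Nkx2-3, a factor of gut and spleen, had a locus near its stop codon with 46.0 in the Mettl14 knockdown library of set 1 and 52.0 and 71.3 in the Mettl3 knockdown libraries, on 10 to 32 tags. In all, 16 of the 75 genes had no scramble peak, among them the neural crest and cartilage factors Sox9 and Sox10, Irx3, Irx5, Nkx2-2, Foxa1 and Foxl2.

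The endoderm factors other than Foxa2 had few peaks. Of the 7 put on the list (Gata4, Gata6, Sox17, Foxa1, Foxa2, Foxa3 and Sox18), 6 had a peak. Only Foxa2 and Gata4 were listed in both sets with Mettl14 knockdown, and only Foxa2 with Mettl3 knockdown, so the others could have no call in both. Foxa2 had peaks of both kinds in every table, since its second peak was new, and Gata4 had opposite calls in the Mettl14 knockdown sets. Gata4 had 101 in the Mettl14 knockdown library of set 2, on 9 tags, against 185 in the set 1 scramble library, on 16 tags. Sox17 had 139 on 11 tags in the set 1 scramble library and no other peak. Foxa1 had 22.1 on 17 tags in the Mettl14 knockdown library of set 2 and no other. None of these 3 genes can be followed from library to library.

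Of 26 neural and ectodermal factors, 18 had a peak. With Mettl14 knockdown, Sox11, Sox21, Pou4f1 and Gata2 were lower in both sets and Pou3f2 was higher. With Mettl3 knockdown, Sox11 and Gata2 were among those lower in both sets, and Pou3f2 and Pou4f2 were higher. Over all genes listed in both sets, 41.8% were lower and 7.55% higher in both with Mettl14 knockdown. The shares with Mettl3 knockdown were 33.5% and 5.81%. A difference of the neural factors from these shares was not tested. Sox1, an early marker of the neural plate, kept the locus at its end (chr8:12397309-12397999) in all libraries, at 35.7 and 23.2 under Mettl14 knockdown and 67.6 and 17.6 under Mettl3 knockdown, against 59.3 and 39.7 with scramble. Its changes there were -0.73 and -0.77 under Mettl14 knockdown and 0.19 and -1.18 under Mettl3 knockdown. Pax6, of eye and forebrain, had 137 in the Mettl14 knockdown library of set 1 and 260 and 122 with Mettl3 knockdown, against 60.3 and 128 with scramble.

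Sox3, a SoxB1 factor like Sox2, had the lowest change of all 3060 shared peaks of the set 2 Mettl14 table, -5.42, in its 3′ UTR (chrX:60891721-60892228). Enrichment there was 15.1 and 6.78 under Mettl14 knockdown and 22.6 and 12.6 under Mettl3 knockdown, against 290 in the set 2 scramble library, and no peak was listed in the set 1 scramble library. The coding locus of Sox3 had 14.4 with Mettl14 knockdown and 16.4 with Mettl3 knockdown in set 1, against 119 and 53.5 with scramble, with no peak in the set 2 knockdown libraries. The gene was lower in set 2 under both knockdowns and had peaks of both kinds in set 1, since the 3′ UTR peak counts as new there.

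Gata2, a factor of blood and neural development, had 14.2 in the Mettl3 knockdown library of set 2, on 15 tags, and no peak in the other knockdown libraries, against 28.2 and 75.9 with scramble. Six4, a muscle and kidney factor, had a coding locus in all libraries that stood at 19.6 and 11.4 under Mettl14 knockdown and 38.2 and 13.1 under Mettl3 knockdown, against 21.3 and 10.3 with scramble. Pou4f1, of sensory neurons, changed by -0.52 and -0.34 with Mettl14 knockdown and by 0.02 and -1.07 with Mettl3 knockdown at the coding locus found in all libraries. Lhx6 of cortical interneurons and Meis2 had a scramble peak in set 1 alone, at 19.1 and 30.7, and both stood at 270 in the Mettl3 knockdown library of that set, on 19 and 15 tags.

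Of 14 forkhead factors listed as broadly expressed, 12 had a peak, among them Foxo6, described above as a factor of brain. More of them were lower than higher in each table, 8 to 1 and 7 to 1 under Mettl14 knockdown and 5 to 3 and 8 to 2 under Mettl3 knockdown, as were more of all genes. In both sets, 4 were lower under Mettl14 knockdown (Foxo1, Foxo4, Foxp4 and Foxn3) and 2 under Mettl3 knockdown (Foxo3 and Foxo4), and Foxm1 was higher under Mettl3 knockdown. Of 23 mesoderm and limb factors, 8 had a peak and 1 had the same call in both sets of a knockdown, Foxf2, a gut mesenchyme factor, higher with Mettl14 knockdown. Of 55 other developmental transcription factors outside these families, 21 had a peak, with 4 lower and 2 higher in both sets under Mettl14 knockdown and 4 lower and 1 higher under Mettl3 knockdown. Zic2 and Twist1 were among the lower ones with either knockdown. Beside these lists, 41.8% of all genes listed in both sets were lower and 7.55% higher in both with Mettl14 knockdown. The shares with Mettl3 knockdown were 33.5% and 5.81%, and no list was tested against them.

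Peaks on markers of the cultured cells were few. Of 12 ES cell markers 3 were listed (Sox2, Esrrb and Klf4), with 2 or 3 holding a peak in each knockdown library and 2 in each scramble library. Pou5f1, Nanog and Zfp42 had none. Of 14 markers of fibroblasts, which the feeder layer could supply, 4 were listed (Col5a1, Thy1, Pdgfrb and Fbn1), with a peak for 3 and 2 in the Mettl14 knockdown libraries, 1 and 0 in the Mettl3 knockdown libraries, and 2 and 1 in the scramble libraries, and none for Col1a1, Col1a2, Col3a1 or Vim. Their part in the results was not tested.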

How the data were processed

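The data were 6 IP libraries made with an antibody against m6A from fragmented poly(A) RNA of 3 groups. The other 6 libraries, which had no antibody, were not analysed here. The submitters' processing notes name mm10, TopHat2 2.0.6 with Bowtie 0.12.7, cutadapt 1.1, Picard 1.74, SAMtools 0.1.18 and CASAVA 1.8.2, in no stated order. Neither the peak caller's version nor the basis of the scaling below is stated in the sources at hand.

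The authors deposited 4 peak tables, each for 1 knockdown IP library and its scramble IP library. Each peak has, per the file headers, MACS names, a tag count in its own library, a fold enrichment that is a ratio of IP to input, a scaled ratio, a signed fold score for knockdown against scramble, and an FDR in percent. The deposited peak score is -log10 of the p-value that the caller gave, times 10. The scaled ratio is the enrichment times 1 constant per knockdown library (for Mettl14 knockdown 0.906 in set 1 and 0.777 in set 2, for Mettl3 knockdown 1.00 and 0.609). Folds and scores per peak are the authors'. Set 1 and set 2 only name the tables.

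The signed fold was turned into log2. It gave back a scramble enrichment for 2833 peaks that also had a deposited value, and all 2833 matched. Loci joined same-strand peaks that overlap by 1 nt or more, and a locus with several peaks (5 of these factors' loci) was compared by the pair with the longest overlap. Libraries have values only where a peak was called, over stretches that differ between libraries, and no model across features was fitted, so counts stand beside the same counts over all peaks. The only test was an exact permutation over libraries. Positions and sequences came from GENCODE M21. The code was tested on simulated peak lists (Python 3.11.15, pandas 2.3.3, numpy 2.4.6, scipy 1.17.1).

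The genes and lists were chosen with earlier results of these data known. Named loci were the 6 of highest scramble enrichment among loci in all libraries, the up to 8 lower and 6 higher with 1 sign in all tables, those in both scramble and no knockdown library or in no scramble and 3 or more knockdown libraries, the 5 genes with the most loci, the gene with the most loci in each family, and 13 pluripotency, endoderm and neural factors. Others were named after their values were seen, for a small count or an extreme value. Some genes are not reported here by name.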

Additional observations from a re-analysis of the deposited data

Results flagged for a closer look

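At 7 of the 111 loci (6.31%, against 3.81% of all 10747 loci) both libraries of 1 knockdown had a peak and neither library of the other had, and the difference between the knockdowns was not tested. With Mettl14 knockdown only, these were Foxf2 at the stop codon (mean enrichment 154, on 18 and 11 tags), the shorter coding locus of Irx2 (8.47, on 47 and 58 tags) and a 5′ UTR locus of Sox1 (79.6, on 20 and 17 tags). With Mettl3 knockdown only, they were the coding locus of Nkx2-3 (123, on 14 and 8 tags), the 5′ UTR locus of Pou4f1 (49.3, on 12 and 16 tags), the coding locus of Pou4f2 (47.3, on 19 and 34 tags) and the stop codon locus of Sox21 (24.1, on 24 and 19 tags). The Sox1 and Pou4f1 loci also had a peak in the set 1 scramble library and the Sox21 locus in both, and the other 4 had none in scramble.

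Peaks listed with no gene lay within 5 kb downstream of 2 genes of these families that have no listed peak of their own. For Pou2f2 this was 1 library, the Mettl3 knockdown library of set 2, with 5 tags. For Pou3f4 it was 1 library, the Mettl14 knockdown library of set 1, with 7 tags. No scramble library had a peak there.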

How the results depend on the processing

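An FDR of at most 1% left few fates. Lost peaks, judged by their own FDR, then numbered 9 and 2 under Mettl14 knockdown and 11 and 1 under Mettl3 knockdown, and new peaks 6 and 1, and 6 and 5, in set 1 and set 2. Peaks on these factors numbered 20 and 34 in the Mettl14 and Mettl3 knockdown libraries of set 2. Genes in both sets were 9 lower and 0 higher with Mettl14 knockdown and 6 lower and 3 higher with Mettl3 knockdown. No shares over all peaks or all genes are at hand at this FDR. This filter was not run on the count of scramble peaks, whose FDR is known only where a table lists them as lost. An overlap of at least 50% of the peak gave 36, 20, 37 and 18 lost peaks, against 29, 19, 34 and 12.

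With the median of all shared peaks set to 0, the medians of the factors were -0.18 for Mettl14 knockdown and -0.13 for Mettl3 knockdown in set 2, and that of Mettl3 knockdown in set 1 reversed to -0.081. Genes higher in both sets then numbered 11 with Mettl14 knockdown and 9 with Mettl3 knockdown, against 10 and 9 without the scaling constants. No shares over all genes are at hand for these counts. Loci in all libraries that were higher in both sets numbered 6 and 6 with the median set to 0, against 5 and 5 without the constants, in alternatives chosen after seeing the data. With the median set to 0, the 6 were 19.4% of these loci, against 30.5% (Mettl14 knockdown) and 28.6% (Mettl3 knockdown) of all loci of this kind. Lower in both sets were then 45.2% and 35.5%, against 28.7% and 29.5%. The lower counts kept within 1.5 times under these scalings (genes 15 and 16, or 16 and 14; loci 14 and 11, or 16 and 11). The causes were not tested.

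With either set left out, genes lower ranged from 35 to 36 with Mettl14 knockdown and from 30 to 33 with Mettl3 knockdown, and genes higher from 16 to 18 and from 12 to 22, since 1 set then suffices for a call. Of the named loci, the mean changes that moved by more than their spread were those of Foxd3 (-0.26 and -0.23), Foxo1 (-0.52 and -0.49) and Foxo3 (-0.11 and -0.08) without the constants and with the median set to 0, and of Sox11 (-1.23) with the median set to 0, and none of them changed sign. No paired analysis was possible because the tables do not carry the replicate numbers of the labels, and the log2 changes, which pair libraries within a set, come from no test.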
